A study of Homo sapiens with 4 samples.

Results

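The expression change over the first step of gel reinforcement was described by setting one engineered prostate cancer tissue (EPCaT) made with added crosslinker against one made without it. The PF EPCaT held the cells in a hydrogel of poly(ethylene glycol) coupled to fibrinogen (PF). The PF+2%PEGDA EPCaT held them in the same gel mixed with poly(ethylene glycol) diacrylate (PEGDA), a small polymer that forms extra crosslinks, at 2% w/v and a volume ratio of 92 parts PF to 8 parts PEGDA. In both tissues PC-3, a human prostate cancer line from a metastasis, and BJ-5ta, human fibroblasts immortalised with telomerase, were encapsulated at 5 to 1 and 20000000 cells per mL and cultured to day 15. Both are single established lines, and RNA was pooled from more than 2 tissues per library, so each column of the deposited count table is 1 library. The question was which genes differed at this step of the stiffness series. A PF+3%PEGDA EPCaT of the same cells and day and a 2D coculture of both lines, whose day and cell ratio the labels do not give, are quoted beside the results as context. All genes with at least 1 CPM (counts per 1000000 of the scaled library size) in either library were taken, 14407 of the 17791 in the table.

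With 1 library a side there was no replicate and no test between gels was possible. A gene is called higher or lower here when its level with 2% PEGDA was at least 2-fold above or below that in PF and the exact 95% interval of the ratio excluded equality. Such an interval covers counting error only, and neither tissue-to-tissue nor library-to-library variation was measured. Gel and library therefore cannot be told apart in any value below.

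Cells in a hydrogel sense its crosslink density through integrins, actin tension and the nuclear lamina, and a denser mesh also slows the passage of solutes and leaves less room for division and spreading. In tumours, stiff matrix has been linked to YAP and TAZ signalling, to matrix remodelling by fibroblasts and to altered proliferation. Poly-A RNA libraries also record how RNA is made and kept in the cell: long nuclear RNAs, retained introns and read-through transcripts on one side, and short, stable cytoplasmic mRNAs such as those of ribosomal proteins on the other.

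Across the 14407 genes 418 were higher with 2% PEGDA (2.9%) and 788 were lower (5.47%), which makes 1206 called in either direction (8.37%). The median log2 ratio over all genes was 0.01, with 7268 genes above 0 and 7139 below. At the inclusion limit ADAMTS10 and ANGPT1 entered with 1.02 CPM each, while ZNF354C and ZNF470 stayed out with a highest level of 0.965 CPM. Calls were denser among scarce genes: in the 20% of genes with the lowest levels, 1.02 to 6.50 CPM in the higher library, 8.80% were higher and 14.8% lower. Both comparisons of the PF+3%PEGDA EPCaT share a library with this one and are given for scale only. Against PF+2%PEGDA, 244 of its 14238 genes were higher (1.71%) and 319 lower (2.24%), 3.95% in all. Against PF, 512 of 14380 were higher (3.56%) and 1083 lower (7.53%), 11.1% in all.

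The 2 libraries were close in depth, 15687894 counts in PF and 15333450 with 2% PEGDA, but not in the kinds of RNA they held. Ribosomal protein genes took 2.23% of counts in PF and 4.14% with 2% PEGDA, against 3.90% with 3% PEGDA and 4.50% in 2D. Ribosomal RNA, 7SL and 7SK genes took 2.17% in PF and 0.686% with 2% PEGDA, then 0.719% and 1.60%. The nuclear RNAs NEAT1 and MALAT1 together took 0.205%, 0.0319%, 0.0331% and 0.0198% in the same order. PF thus had the lowest share of ribosomal protein counts and the highest shares of the other classes. These shares move with many of the groups below, and their part in those results was not tested.

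**Figure D1:**
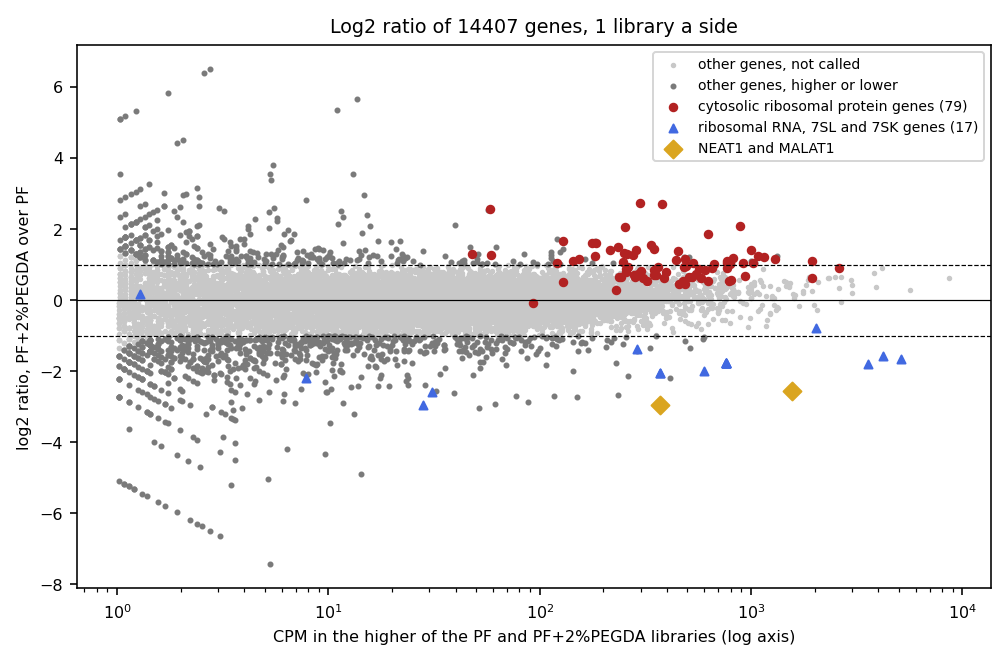
Each point is a gene, with its CPM in the higher of the PF and PF+2%PEGDA libraries on a log axis and its log2 ratio (PF+2%PEGDA over PF) on the vertical axis; dashed lines mark 2-fold. The 79 ribosomal protein genes lie mostly above 0 and the 17 ribosomal RNA, 7SL and 7SK genes, with NEAT1 and MALAT1, mostly below.

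The mix of cell lines was read from marker genes. The 23 measured fibroblast markers had a median log2 ratio of 0.09, with SPARC higher and COL5A2 lower, and their levels summed to 3367 CPM in PF and 3959.6 CPM with 2% PEGDA (3284 with 3% PEGDA and 10907 in 2D). The 26 epithelial markers had a median of -0.02 with 0 called, and summed to 7246 and 8002 CPM (7549 and 5682). Of 14 markers of endothelial and blood cells, which were not seeded, 6 were measured and 0 were called (median 0.03), with sums of 313 and 362 CPM (426 and 159). Among them KDR, a VEGF receptor, measured 154, 184, 226 and 22.1 CPM in PF, PF+2%PEGDA, PF+3%PEGDA and 2D, and PECAM1, an endothelial adhesion molecule, 65.4, 82.2, 86.2 and 7.19 CPM, so both lay higher in all 3 gels than in 2D, while VWF had 3 and 2 counts in PF and with 2% PEGDA and TEK 5 and 5. The part of other cell types in the results was not tested. CTNNA1, in which PC-3 carries a deletion, measured 5.39, 6.18, 8.26 and 33.3 CPM in PF, PF+2%PEGDA, PF+3%PEGDA and 2D. In such bulk RNA fewer cells of a type and less RNA per cell cannot be told apart.

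Of 11 listed and measured nuclear long non-coding RNAs 5 were lower. NEAT1, the scaffold of nuclear paraspeckles (chromosome 11, 65422774 to 65445540), measured 1563 CPM in PF, 267 with 2% PEGDA, 251 with 3% PEGDA and 196 in 2D. The PF library was the high one, and NEAT1 was 5.85-fold lower with 2% PEGDA (interval 5.67 to 6.05). MALAT1, an RNA of nuclear speckles (chromosome 11, 65497688 to 65506516), stood at 369, 47.3, 82.1 and 15.6 CPM in those libraries, 7.80-fold lower (7.22 to 8.43). TALAM1, annotated on its opposite strand, measured 61.3 and 7.98 CPM, but the library kit does not mark strand, so the 2 cannot be separated. KCNQ1OT1, the imprinted antisense RNA of the KCNQ1 locus, was 3.93-fold lower (11.4 and 2.90 CPM), with the same limit on strand. MEG3, an imprinted RNA, had 27 counts in PF and 1 with 2% PEGDA, 25.1-fold lower with a wide interval (4.15 to 1029.7). SNHG12, a host of small nucleolar RNAs, had 104 and 42 counts. The list does not hold TALAM1, and it had 5 lower (45.5%, beside 5.47% of all genes) and 1 higher. Its median log2 ratio was -0.96, and -0.35 with a filter at 5 CPM, which fewer of its genes pass. The higher one was GAS5, another such host gene whose spliced RNA starts with a pyrimidine tract, at 1.62 and 6.43 CPM. The 24 measured SNHG host genes had 4 higher and 3 lower (16.7% and 12.5%, median 0.35).

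Of 20 SR protein, hnRNP and CLK genes, which act in splicing, 1 was lower (5.0%, beside 5.47% of all genes) and the median was -0.34. The lower one was CLK2, a kinase of splicing factors, 2.19-fold lower (66.5 and 30.4 CPM). SRSF5 (log2 -0.93), SRSF1 (-0.83) and CLK1 (-0.63) had the next lowest ratios without passing the size rule. The genes that follow were named after their values were seen. CCNL2, cyclin L2, a partner of splicing kinases (chromosome 1, 1385711 to 1399328), measured 412, 91.1, 85.8 and 71.3 CPM in PF, PF+2%PEGDA, PF+3%PEGDA and 2D, 4.52-fold lower with 2% PEGDA (4.27 to 4.79). RBM6, an RNA-binding splicing regulator, was 4.02-fold lower (143 and 35.6 CPM), and LENG8 4.41-fold (260.2 and 59.0 CPM). In all 3 the PF level lay above each of the other libraries, which lay close together. RSRP1 was 4.30-fold lower.

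Ribosomal RNA is not polyadenylated as a rule, and what a poly-A library retains of it varies. Of 17 measured genes for ribosomal RNA, 7SL and 7SK, 15 were lower (88.2%, beside 5.47% of all genes) and 0 higher (median log2 ratio -1.77). RNA45SN2, one copy of the 45S precursor, measured 596, 149, 130.0 and 73.8 CPM in PF, PF+2%PEGDA, PF+3%PEGDA and 2D. RNA28SN1 measured 3583, 1025, 881 and 3047 CPM, so that for 28S the PF and 2D libraries were the high pair, whereas for 45S PF stood alone. RNA18SN1 and the other 18S copies carried identical values (757 and 222 CPM) and amount to 1 observation. The 45S and 28S genes are repeat copies as well, between which reads can be split in more than one way. The 15 lower genes are therefore not independent, and their percent cannot be read like that over all genes. RN7SL2, the RNA of the signal recognition particle, was 7.80-fold lower (28.1 and 3.60 CPM). It has 86.5% of its 50-mers in other genes, so its ratio is uncertain in the same way. RN7SK, which holds the elongation factor P-TEFb inactive, measured 7.79 and 1.67 CPM.

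Multicopy loci made up a large part of the extreme ratios and are uncertain, since reads can be split between copies in more than one way. Of 138 transcribed unprocessed pseudogenes 45 were lower (32.6%) and 8 higher (median -0.56), against 532 lower (4.05%) and 319 higher of 13122 protein-coding genes. The 11 measured GOLGA6 and GOLGA8 copies, golgin genes repeated along chromosome 15, had 8 lower (72.7%) and 0 higher (median -1.31). GOLGA8A measured 234 and 36.8 CPM and GOLGA8B 88.4 and 12.0 CPM. HERC2P2, a pseudogene copy on the same chromosome, measured 117 and 18.1 CPM. Of 57 processed pseudogenes, which are spliced copies inserted elsewhere, 13 were higher (22.8%, beside 2.9% of all genes) and 2 lower (median 0.19), and RPL23P8 and RPL21P28, copies of ribosomal protein genes, were among the 15 genes ranked highest. In all, 940 of the genes measured had at least 50% of their 50-mers in other genes, and 199 of these were called. Over all genes 1206 of 14407 were called (8.37%). Scarce genes were called more often: of the 2886 with at most 6.50 CPM in the higher library, 8.80% were higher and 14.8% lower. The part of low levels in the calls of these copies and pseudogenes was not tested.

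Read-through loci, which join a gene to its downstream neighbour, went both ways: 15 of 75 were higher and 18 lower (20.0% and 24.0%, beside 2.9% and 5.47% of all genes, median 0.03). MSH5-SAPCD1 had 88 counts in PF and 0 with 2% PEGDA, at least 27.3-fold lower against a floor of 3 counts (the exact interval, which adds the counting error in PF, starts at 21.8-fold), while MSH5 itself measured 4.08 and 3.15 CPM. COMMD3-BMI1 went from 1.86 to 14.7 CPM, with COMMD3 at 21.6 and 24.9 CPM and BMI1 at 69.9 and 58.7 CPM. RPL36A-HNRNPH2 went from 36.9 to 121 CPM, HNRNPH2 from 107 to 30.2 and RPL36A from 9.65 to 57.9. MSH5 and both parents of COMMD3-BMI1 thus lay within 2-fold, while RPL36A-HNRNPH2 and HNRNPH2 were called in opposite directions. CHKB-CPT1B measured 10.2 and 0.901 CPM, its parent CPT1B 17.1 and 3.15 CPM and CHKB 13.6 and 8.75 CPM. GPR75-ASB3, IPO11-LRRC70 and SLMO2-ATP5E were among the highest ranked and C8orf44-SGK3 and STAG3L5P-PVRIG2P-PILRB among the lowest. PVRIG2P, which lies inside the last of these, measured 13.2 and 1.42 CPM, BOLA2, a duplicated gene, 9.65 and 0.450 CPM, and PLA2G4B, which shares 96.8% of its 50-mers with other genes, 14.3 and 0.450 CPM. CERS6-AS1, with 4 counts in PF and 213 with 2% PEGDA, had the highest bound of all genes ranked but shares 96.0% of its 50-mers with other genes, and CERS6, over which it lies, measured 111 and 103 CPM. PGBD3, a transposase-derived gene set within ERCC6, had 4 and 171 counts, and ERCC6 measured 103 and 69.8 CPM. Parent genes given here were chosen after values were seen. Over annotated antisense RNAs, 42 of 284 were lower (14.8%) and 17 higher (median -0.19), and over LINC RNAs 26 of 147 were lower (17.7%) and 12 higher (median -0.05). Of all genes 5.47% were lower, and 14.8% of the 2886 with at most 6.50 CPM in the higher library.

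Ribosomal protein genes held many of the higher calls. They encode the protein shell of the ribosome, and their mRNAs characteristically begin with a C followed by a run of pyrimidines, the terminal oligopyrimidine tract through which their translation is controlled. Of 79 measured, 40 were higher (50.6%, beside 2.9% of all genes) and 0 lower. Their median log2 ratio was 1.01, and 78 lay above 0. The start sites of 6 higher members are shown because they carry this tract, beside 4 other genes that do not, 3 of them lower. Each line gives 15 bases before and 15 from the annotated start, 5′ to 3′, from RefSeq on GRCh38.p14, with the tract in capitals.
RPL39: ttcttccgccagcttCCCTCCTCTTCCTTT
RPL41: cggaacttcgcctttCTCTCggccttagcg
RPS14: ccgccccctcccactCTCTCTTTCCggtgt
FAU: cgccctcgcttcttcCTCTTTCTCgactcc
RPS27: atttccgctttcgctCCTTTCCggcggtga
RPS12: gcgtgcggatgaggcCTCTTTCCCTgccgc
VIM: gtgcaatcgtgatctgggaggcccacgtat
CCNL2: agccgccctgagggaagaagccgaagggga
LENG8: acgccgcggtcaggacgtcgaagccaaaga
MALAT1: ccccgctctcccctccgcagcctgcagccc
They lie at chrX:119791616-119791645 on the minus strand, chr12:56116618-56116647 (plus), chr5:150449725-150449754 (minus), chr11:65122120-65122149 (minus), chr1:153990747-153990776 (plus), chr6:132814554-132814583 (plus), chr10:17228226-17228255 (plus), chr1:1399321-1399350 (minus), chr19:54449184-54449213 (plus) and chr11:65497723-65497752 (plus).

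RPL39 measured 44.9, 299, 276 and 164 CPM in PF, PF+2%PEGDA, PF+3%PEGDA and 2D and was 6.65-fold higher with 2% PEGDA (6.15 to 7.19). For RPS27 the levels were 58.4, 379, 279 and 320.4 CPM, 6.48-fold higher, with 66.5% of its 50-mers in other genes. RPL41, among the shortest coding genes, measured 209, 889, 683 and 684 CPM, 4.26-fold higher. PF was the low library for each of the 3. FAU, whose product is cut to a ubiquitin-like protein and ribosomal protein eS30, measured 60.7, 253, 174 and 348 CPM, and RPS14, of the small subunit, 171, 624, 465 and 554 CPM. RPL27 went from 106 to 259.9 CPM, RPS29 from 175 to 452 and RPLP0, of the ribosomal stalk and often used as a reference gene, from 909 to 1950.4. RPS12 measured 58.1 and 176 CPM. In a shorter list of 32 ribosomal protein genes 14 were higher and 0 lower (median 0.92, and 0.62 with the length and GC trend removed). RPL27 (log2 0.88), RPS29 (0.97) and RPLP0 (0.93) lost their calls without that trend. TPT1, which has a tract of the same kind, went from 560.4 to 1332 CPM, 2.38-fold higher. EEF1A1, the elongation factor whose mRNA is of this class, measured 2213 and 4146 CPM and EEF2 1139.7 and 1518 CPM, both under the size rule.

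Ribosomal protein genes with and without the tract had similar medians. The tract was searched as a C at the first transcribed base followed by at least 4 bases that are C or T, on the transcribed strand. It was present in 4.04% of the 27305 RefSeq promoters given, in 43 of the 63 ribosomal protein genes with an entry (68.3%) and in 5.07% of the 11091 other genes measured. With the tract, ribosomal protein genes had a median log2 ratio of 0.96 (21 of 43 higher), and without it 1.07 (11 of 20 higher). Outside the family the 562 genes with the tract had a median of 0.07, beside 0.0019 for genes without it. With the tract 18 were higher (3.20%) and 21 lower (3.74%). Without it the shares were 2.13% and 4.50%, and over all genes 2.9% and 5.47%. Annotated starts may differ from those used in these cells, and a match is a description of the letters only.

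Medians above 0 were also found in families of mitochondrial and proteasome genes, with few calls. Many of these genes are short, with a median length of 963 bases for the NDUF genes. Of 75 mitochondrial ribosomal protein genes 68 lay above 0, with 0 called (median 0.38). The 37 NDUF subunit genes of complex I had 1 higher and 0 lower (median 0.46), the 48 genes of complexes III, IV and V 5 higher (10.4%, beside 2.9% of all genes) and 0 lower (median 0.55), and the 37 proteasome subunit genes 0 called (median 0.24). ATP5MC2, which encodes subunit c of the ATP synthase rotor, went from 79.7 to 179.9 CPM (2.26-fold), and ROMO1, a small protein of the inner mitochondrial membrane, from 21.8 to 62.1 (2.85-fold). The list of 25 oxidative phosphorylation genes had a median of 0.42, and 0.28 with the length and GC trend over all genes removed. Its highest ratio was that of NDUFA4 (log2 0.96), and COX7C measured 159 and 278 CPM. None of the 13 genes encoded by mitochondrial DNA was measured here.

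The log2 ratio followed transcript length. Among the shortest 10% of genes (87 to 1280 bases) the median was 0.37, and 10.7% were higher and 3.91% lower. Among the longest 10% (7085 to 101520 bases) it was -0.20, and 1.14% were higher and 5.20% lower. Without the 50 ribosomal protein genes in it, the shortest group had a median of 0.35 over 1356 genes and 9.44% higher, so the shift was not confined to that family. The 50 had a median of 0.93. GC content moved less, with medians from -0.03 in the 20% of genes of lowest GC to 0.05 in the highest. Because many genes of division and matrix are long and many of translation and respiration are short, each list was also computed with the trend over length and GC removed, and the value is given where it matters. What produced the trend was not tested.

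**Figure D2:**
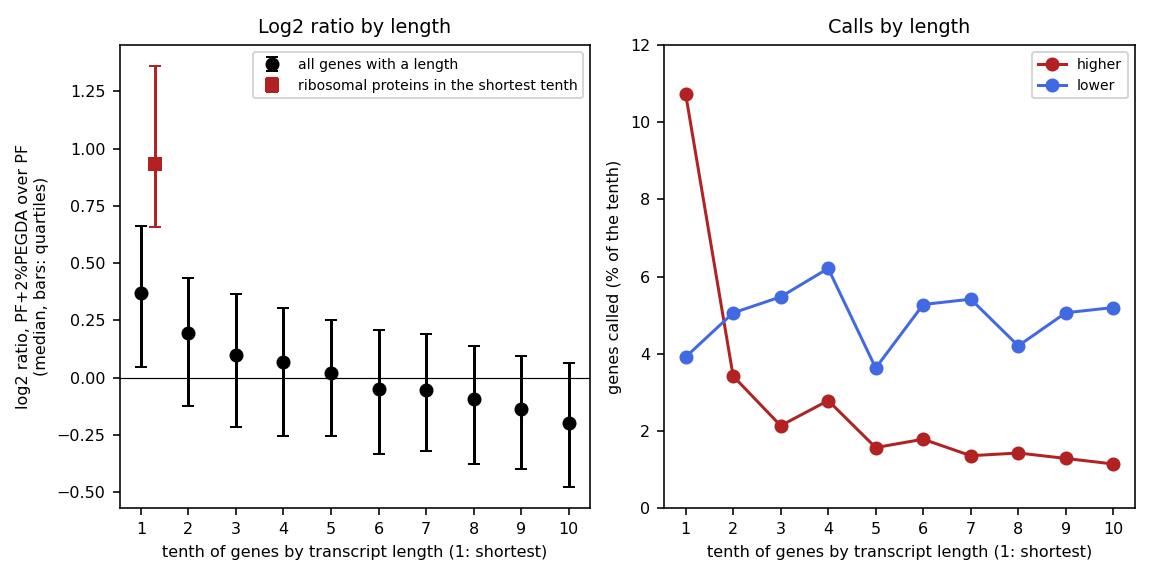
The left panel shows the median log2 ratio (PF+2%PEGDA over PF) in each 10% of genes by transcript length, with bars for the quartiles; the median goes from 0.37 to -0.20, and the ribosomal proteins of the shortest group lie at 0.93. The right panel shows the percent of genes called higher or lower, where 10.7% of the shortest group and 1.14% of the longest were higher.

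Genes of mitosis were lower in part. Of 32 measured G2 and M phase genes 5 were lower (15.6%, beside 5.47% of all genes) and 0 higher. The median log2 ratio was -0.38, and -0.42 with the length and GC trend removed. CENPE, the kinesin that links kinetochores to microtubules (chromosome 4, 103105806 to 103198409), measured 17.7, 4.12, 3.22 and 2.12 CPM in PF, PF+2%PEGDA, PF+3%PEGDA and 2D and was 4.31-fold lower with 2% PEGDA (3.28 to 5.74). MKI67, the gene of the Ki-67 antigen that coats mitotic chromosomes (chromosome 10, 128096659 to 128126385), went from 119 to 49.0 CPM, 2.44-fold lower (2.24 to 2.65). KIF14, a kinesin of cytokinesis, was 2.83-fold lower, CENPF, a kinetochore protein, 2.42-fold, and ASPM, a spindle pole protein, 2.09-fold. In these 5 the order of levels was PF, 2% PEGDA, 3% PEGDA. The 2D level lay below that with 3% PEGDA for all but CENPF, which had 17.9 CPM in both. ASPM lost its call with the trend removed (log2 -0.94). TOP2A, topoisomerase II alpha, measured 98.0 and 59.4 CPM and did not pass the size rule. Other members of the list had ratios near 1: CDK1 had a log2 ratio of -0.07, CCNB1 -0.08, CDC20 -0.06, PLK1 0.10, UBE2C 0.08 and PTTG1 0.35. Of 34 kinesins measured 4 were lower (11.8%, beside 5.47% of all genes) and 0 higher, with 30 below 0 (median -0.47).

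Replication and repair genes had medians below 0 with few calls. Among 30 S phase genes 1 was lower, CCNE2, which encodes cyclin E2 (12.4 and 5.98 CPM), and the median was -0.26. PCNA, the sliding clamp, measured 132 and 124 CPM, and MCM3, of the replicative helicase, 129 and 102 CPM. Of 19 homologous recombination and Fanconi genes 3 were lower (15.8%, beside 5.47% of all genes) and 0 higher, and 17 lay below 0, with a median of -0.62 (-0.56 with the trend removed). POLQ, the polymerase of end joining by microhomology (chromosome 3, 121431427 to 121546641), measured 15.7, 5.08, 3.00 and 1.71 CPM in PF, PF+2%PEGDA, PF+3%PEGDA and 2D, 3.09-fold lower (2.39 to 4.03). FANCA, of the Fanconi core complex, was 2.32-fold lower (32.8 and 14.2 CPM) and XRCC2, of the strand exchange step, 2.43-fold (18.9 and 7.79 CPM). BRCA1 (log2 -0.97) and BRCA2 (-0.86) did not reach the size rule. Replication-dependent histone genes, whose mRNAs mostly lack a poly-A tail, had 1 higher and 1 lower of 13 measured. H2AC8 went from 5.69 to 12.6 CPM and H4C14, a duplicated gene with all of its 50-mers elsewhere, from 61 counts to 12. With the trend removed their median of 0.13 became -0.18, and H2AC8 lost its call (log2 0.74). The zinc finger genes named ZNF, mostly repressors of transcription, had 17 lower (3.82%) and 2 higher (0.45%) of 445, both under the shares over all genes (5.47% and 2.9%), and 318 lay below 0 (median -0.20).

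**Figure D3:**
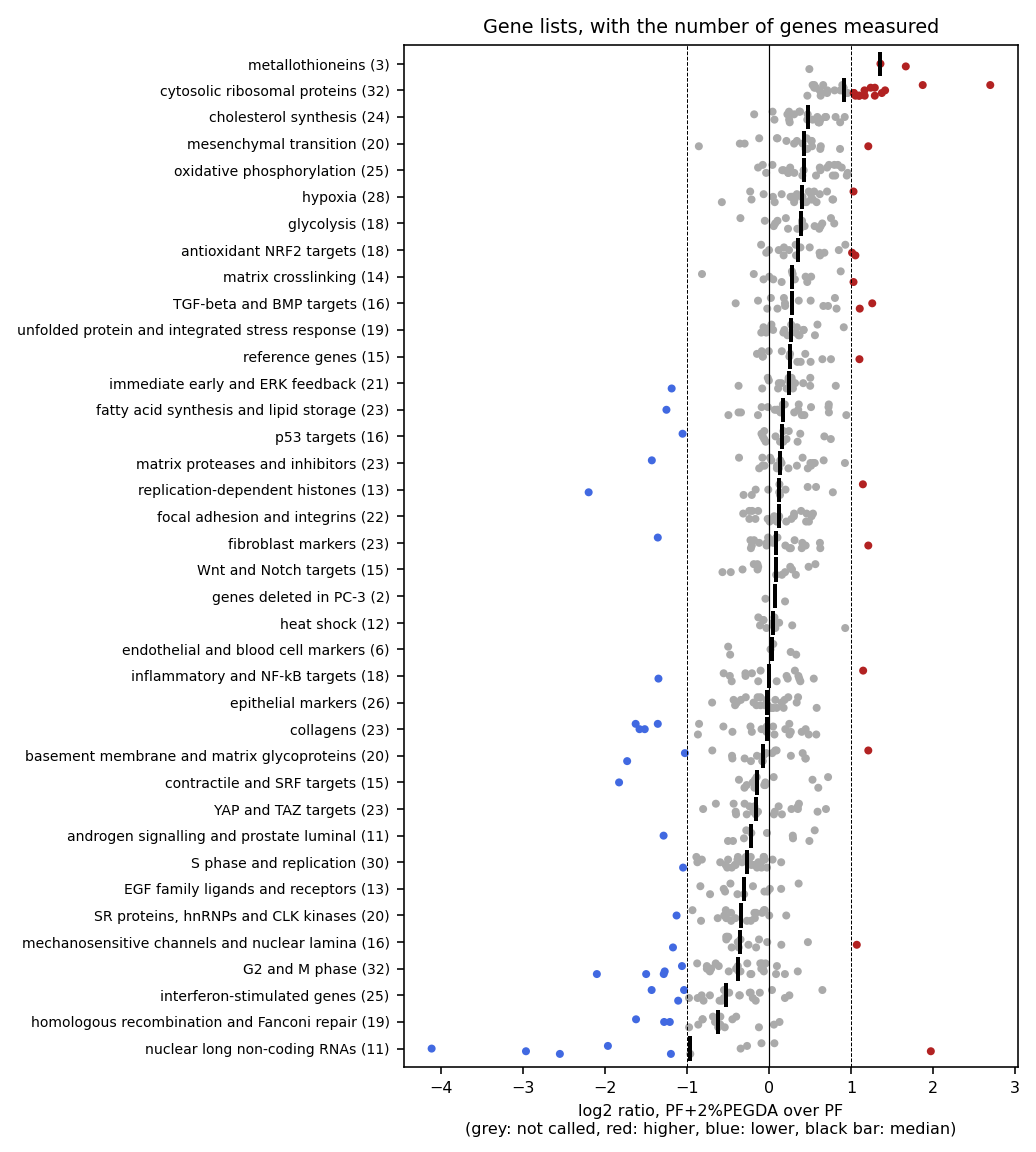
Each row is a gene list with its number of measured genes, each point a gene's log2 ratio (PF+2%PEGDA over PF) and each black bar the list's median; dashed lines mark 2-fold, red points were called higher and blue lower. Medians run from -0.96 for nuclear long non-coding RNAs (-0.35 with a filter at 5 CPM) to 1.36 for the 3 metallothioneins. With the length and GC trend removed the metallothionein median was 0.98.

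Matrix genes went in both directions, with no common shift. Of 23 listed collagen genes 4 were lower (17.4%, beside 5.47% of all genes) and 0 higher (median -0.03, and 0.16 with the length and GC trend removed). COL5A2, a chain of the fibril-nucleating collagen V (chromosome 2, 189031896 to 189225312), measured 512, 200.1, 177 and 231 CPM in PF, PF+2%PEGDA, PF+3%PEGDA and 2D, so PF was the high library, and it was 2.56-fold lower with 2% PEGDA (2.46 to 2.67). COL4A6, a basement membrane chain, was 3.00-fold lower (15.8 and 5.28 CPM), COL7A1, of anchoring fibrils, 3.10-fold (10.8 and 3.47 CPM) and COL27A1 2.87-fold (10.9 and 3.80 CPM). The main fibrillar collagen genes of fibroblasts were not called: COL1A1 measured 307 and 365 CPM, COL1A2 had a log2 ratio of -0.21 and COL3A1 -0.03. SPARC, a secreted collagen-binding glycoprotein (chromosome 5, 151661096 to 151687165), went the other way, from 208 to 481 CPM, 2.31-fold higher (2.22 to 2.41), with 391 CPM in 3% PEGDA and 579 in 2D. LOX, the lysyl oxidase that crosslinks collagen (chromosome 5, 122063195 to 122078360), measured 26.2, 53.5, 69.0 and 28.8 CPM in the 4 libraries, just past the size rule at 2.04-fold (1.82 to 2.30), and was the only gene called among 14 of matrix crosslinking (median 0.28). With total counts as the scaling LOX lost its call (log2 0.96).

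Among 20 basement membrane and matrix glycoprotein genes SPARC was higher and LAMA5 and LAMA1 were lower (10.0%, beside 5.47% of all genes, median -0.07, and 0.13 with the trend removed). LAMA5, the laminin alpha 5 chain, went from 595 to 292 CPM, and LAMA1 from 19 counts to 5. LAMA5 lost its call with the trend removed (log2 -0.65). FN1, fibronectin, measured 311 and 413 CPM. Of 23 matrix proteases and inhibitors only MMP24 was called, lower at 24 and 8 counts (median 0.14). MMP1, the interstitial collagenase, measured 58.9 and 64.0 CPM, and TIMP1, an inhibitor of such proteases, 226 and 429 CPM, under 2-fold. Adhesion genes showed 0 calls among 22 of focal adhesions and integrins (median 0.12), where ITGB1 measured 1198 and 1249 CPM.

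The genes usually read as a response to matrix stiffness showed few calls at this step. Of 23 YAP and TAZ targets 0 were called, with a median of -0.16 that became 0.056 with the length and GC trend removed. CCN2, connective tissue growth factor, measured 71.7, 108, 78.7 and 180.3 CPM in PF, PF+2%PEGDA, PF+3%PEGDA and 2D, CCN1 had a log2 ratio of -0.40 and ANKRD1 -0.80. Of 15 contractile genes and SRF targets only TPM2, beta-tropomyosin (chromosome 9, 35681992 to 35690121), was called, lower from 21.1 to 5.92 CPM (3.56-fold, 2.83 to 4.53), with 4.75 CPM in 3% PEGDA and 42.7 in 2D. ACTA2, smooth muscle actin, had a log2 ratio of 0.60 and MYL9, a myosin light chain, 0.53. Among 16 mechanosensitive channels and lamina genes (median -0.36, and -0.20 with the trend removed) SYNE2, the giant nesprin that ties the nucleus to actin, was 2.25-fold lower (217 and 96.2 CPM), and the channel gene PIEZO2 was higher at 33 and 65 counts. SYNE2 lost its call with the trend removed (log2 -0.95), and PIEZO2 with total counts (1.00). PIEZO1 measured 291 and 225 CPM and LMNA, lamin A, 496 and 488 CPM.

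Mesenchymal and epithelial identity genes gave 1 call. Of 20 mesenchymal transition genes only SPARC was called (median 0.43). VIM, vimentin, went from 623 to 1134 CPM, 1.82-fold and so under the size rule, with 1390.0 CPM in 3% PEGDA and 1859.9 in 2D. CDH2, N-cadherin, measured 12.6 and 19.5 CPM, CDH1, E-cadherin, 421 and 392 CPM, CD44, the hyaluronan receptor, 169 and 243 CPM, and the keratin gene KRT18 539 and 634 CPM.

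Genes of the response to low oxygen and of glycolysis lay slightly above 0 as groups, with a single call. Of 28 hypoxia genes only LOX was higher and 0 were lower (median 0.40). ANGPTL4, a secreted lipase inhibitor, went from 403 to 692 CPM (1.72-fold) and CA9, carbonic anhydrase 9, from 5.63 to 8.43. VEGFA, the angiogenic factor, had the lowest ratio of the list, at 215 and 144 CPM. None of 18 glycolysis genes was called (median 0.39). GAPDH measured 2256 and 3805 CPM, ENO1, enolase, 1704 and 2669.8 CPM, PGK1 2049 and 2602 CPM and PKM, pyruvate kinase, 2612 and 3010.1 CPM. Of 15 reference genes RPLP0 was the only one called, and their median was 0.26.

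Lipid genes likewise stayed under 2-fold with 1 exception. Of 24 cholesterol synthesis genes 0 were called, but 23 lay above 0 and the median was 0.47 (0.37 with the length and GC trend removed). MSMO1, a sterol oxidase, had the highest log2 ratio (0.92), and INSIG1, which restrains the pathway's activator, followed (0.87). DHCR7, of the last step, measured 224 and 362 CPM. Of 23 fatty acid and lipid storage genes 1 was lower, PLIN5, a lipid droplet coat protein, at 12.0 and 5.02 CPM (median 0.17). SCD, the stearoyl desaturase, measured 1023 and 1458 CPM and FASN, fatty acid synthase, 572 and 707 CPM.

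Metallothioneins, small proteins that bind zinc and copper, were higher in 2 of the 3 measured (66.7%, beside 2.9% of all genes). Their promoters are shown because they hold metal response elements, the sites of the zinc-sensing factor MTF1. The 250 bases before each start are given 5′ to 3′ on the plus strand from RefSeq (GRCh38.p14), with matches to TGCACNC or TGCGCNC on either strand in capitals, at chr16:56608334-56608583 for MT2A and chr16:56682220-56682469 for MT1X. A match describes the letters only.
MT2A: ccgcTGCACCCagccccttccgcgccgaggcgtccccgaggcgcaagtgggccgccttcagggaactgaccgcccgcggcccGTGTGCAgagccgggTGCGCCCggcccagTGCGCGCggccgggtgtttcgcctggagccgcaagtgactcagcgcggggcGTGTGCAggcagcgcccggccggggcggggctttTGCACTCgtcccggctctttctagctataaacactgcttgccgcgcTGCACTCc
MT1X: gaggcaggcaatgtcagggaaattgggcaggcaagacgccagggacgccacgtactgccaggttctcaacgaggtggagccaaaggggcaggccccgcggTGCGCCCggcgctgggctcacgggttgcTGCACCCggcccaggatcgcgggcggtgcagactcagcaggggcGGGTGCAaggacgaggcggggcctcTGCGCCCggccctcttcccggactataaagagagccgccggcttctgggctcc
MT2A held 7 matches and MT1X 4, while 24.7% of all promoters of that length held at least 1 and 0.366% at least 4. MT2A measured 48.5, 124, 183 and 570.0 CPM in PF, PF+2%PEGDA, PF+3%PEGDA and 2D and was 2.56-fold higher with 2% PEGDA (2.36 to 2.79). MT1X measured 6.83, 21.8, 37.2 and 57.9 CPM and was 3.18-fold higher (2.57 to 3.97), with 45.1% of its 50-mers in other genes. For both, PF was the lowest library and 2D the highest. MT2A lost its call with the length and GC trend removed (log2 0.98). MT1F had 35 and 46 counts, was not called and had no entry among the promoters used. Of 7 metallothioneins listed, 6 were in the count table and 3 passed the filter at 1 CPM. The list's median log2 ratio was 1.36, and 0.93 with no filter.

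Among 18 antioxidant NRF2 targets 2 were higher (11.1%, beside 2.9% of all genes), the ferritin light chain gene FTL and the aldo-keto reductase gene AKR1B10 (median 0.36). FTL went from 505 to 1047 CPM and AKR1B10 from 3.18 to 6.43, both close to 2-fold, and both lost their calls with the trend removed (log2 0.65 and 0.79) and with total counts. FTH1, the heavy chain gene, measured 5649 and 8653 CPM. Stress genes gave 0 calls, with medians of 0.27 for 19 unfolded protein and integrated stress genes (0.16 with the trend removed) and 0.05 for 12 heat shock genes. HSPA5, the main chaperone of the endoplasmic reticulum, measured 755 and 969 CPM. Of 16 p53 targets, in a cancer line that lacks p53, only the death receptor gene FAS was called, lower at 34 and 15 counts (median 0.15), and its call was lost with a prior count of 2.

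Genes induced by interferon mostly lay below 0, 21 of 25 of them. Of the 25, 3 were lower (12.0%, beside 5.47% of all genes) and 0 higher, and the median log2 ratio was -0.52 with or without the length and GC trend. STAT2, the transcription factor of the type I pathway (chromosome 12, 56341597 to 56360155), measured 289, 107, 114 and 102 CPM in PF, PF+2%PEGDA, PF+3%PEGDA and 2D and was 2.70-fold lower (2.55 to 2.85). IFI44 was 2.16-fold lower (123 and 57.3 CPM) and IFIH1, the sensor MDA5, 2.05-fold (117 and 57.3 CPM), a call lost with the trend removed (log2 -0.99). The classical members IFIT1 (log2 -0.80), MX1 (-0.55) and ISG15 (-0.36) did not pass the rule. B2M, the light chain of MHC class I, had the highest ratio of the list, at 1193 and 1872 CPM. Outside the list, and chosen after values were seen, SAMD9, an antiviral restriction factor, was lower (205 and 81.5 CPM), as were SAMD9L (97.6 and 36.4 CPM), MX2 (90.9 and 37.3 CPM) and XAF1 (28.6 and 5.47 CPM).

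Inflammatory and growth factor genes had single calls. Among 18 NF-kB targets CXCL8, the neutrophil chemokine interleukin 8 (chromosome 4, 73740506 to 73743716), was 2.21-fold higher (22.8, 50.5, 61.1 and 65.9 CPM in the 4 libraries), and CXCL2 was lower at 50 and 18 counts (median -0.01, and 0.22 with a filter at 5 CPM). FOS was the only gene called of 21 immediate early and ERK feedback genes, lower at 5.75 and 2.51 CPM (median 0.24). Of 16 TGF-beta and BMP targets ID3, an inhibitor of helix-loop-helix factors, was higher (8.21 and 17.7 CPM), as was the ligand gene BMP2 (1.68 and 4.05 CPM), which makes 12.5% of the list beside 2.9% of all genes, with a list median of 0.28. Without the trend CXCL8 (log2 0.94) and ID3 (0.70) lost their calls. There were 0 calls among 13 EGF family genes (median -0.30) and 15 Wnt and Notch targets (median 0.09). EGFR measured 198 and 160.5 CPM and TGFB1 99.6 and 164 CPM. The 11 androgen and prostate luminal genes had a median of -0.22, and TMPRSS2 measured 383 and 309 CPM.

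**Figure D4:**
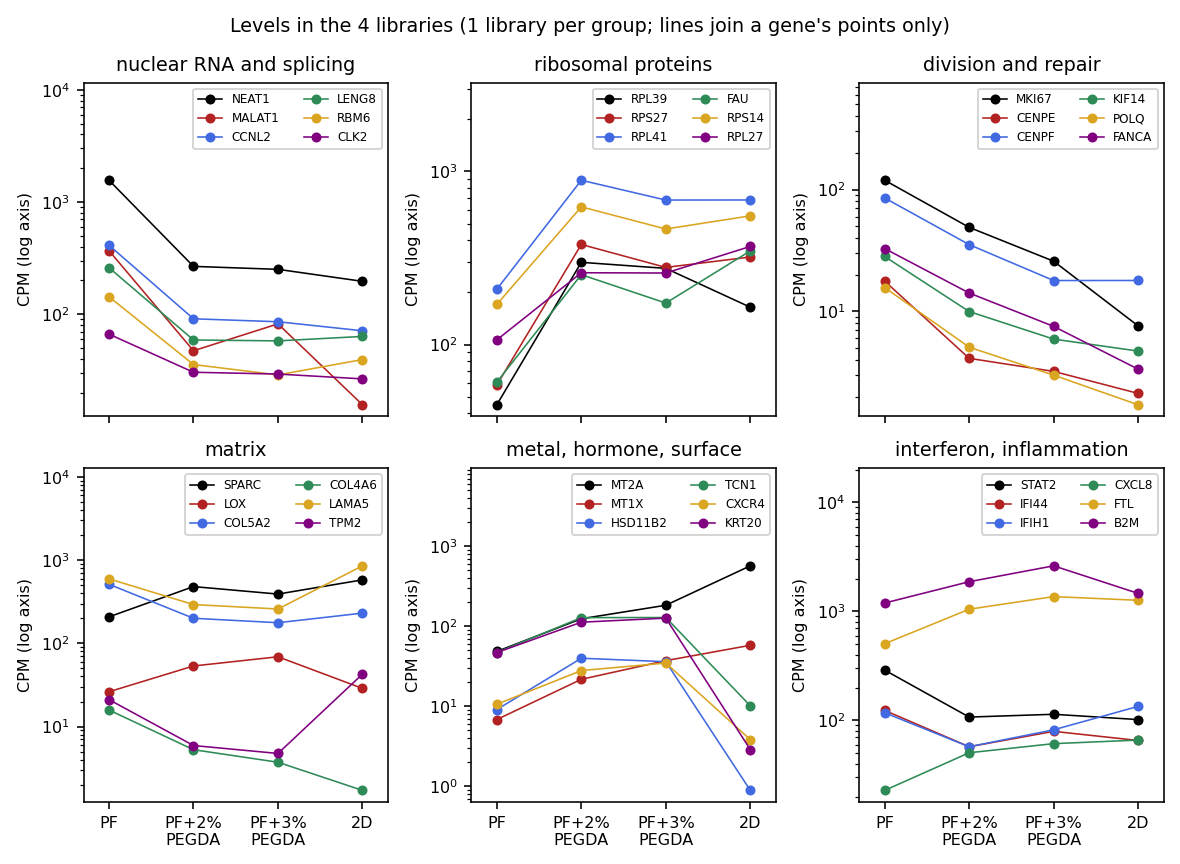
Each panel plots the CPM of 6 genes (log axis) in the PF, PF+2%PEGDA, PF+3%PEGDA and 2D libraries, 1 library each, with lines joining a gene's points. NEAT1 and MALAT1 start highest in PF, at 1563 and 369 CPM, while RPL39 and RPS27 start lowest there, at 44.9 and 58.4 CPM.

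To look past the copy families, called protein-coding genes with under 20% of their 50-mers in other genes and at least 5 CPM were ranked. Ribosomal protein genes were left out, and the choice was made after values were seen. Among these called genes 87 were higher and 229 lower. Uncalled genes of this kind were not counted, so no share can be set beside the 2.9% and 5.47% of all genes. At the top stood UTS2, which encodes the vasoactive peptide urotensin II (chromosome 1, 7843083 to 7853512), with 18 counts in PF and 203 with 2% PEGDA (1.08 and 13.1 CPM, 12.1-fold, 7.47 to 20.8). It measured 17 CPM with 3% PEGDA and had 0 counts in 2D. HSD11B2, which inactivates cortisol (chromosome 16, 67430652 to 67437553), measured 9.11, 39.9, 36.1 and 0.890 CPM in the 4 libraries and was 4.38-fold higher (3.66 to 5.26). MYCN, a MYC family transcription factor, went from 19 to 89 counts, with 0 in 2D. ELAPOR1, a membrane protein of endosomes and lysosomes, was 4.42-fold higher (2.52 and 11.1 CPM). For these 4 genes both PEGDA libraries lay above PF and 2D lay below it.

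From the same ranking, TCN1, CXCR4, KRT20 and NELL2 likewise had both PEGDA libraries above PF and 2D below it. TCN1, a vitamin B12 carrier, measured 47.1, 128, 129 and 10.1 CPM in PF, PF+2%PEGDA, PF+3%PEGDA and 2D. CXCR4, the receptor of the chemokine CXCL12 (chromosome 2, 136114349 to 136118165), measured 10.6, 28, 34.7 and 3.83 CPM and was 2.64-fold higher (2.21 to 3.16). KRT20, a keratin of intestinal and urothelial surface cells (chromosome 17, 40875941 to 40885227), measured 47.0, 113, 127 and 2.88 CPM and was 2.40-fold higher. NELL2, a secreted glycoprotein, measured 2.04, 6.56, 6.58 and 0.479 CPM and was 3.22-fold higher. The order differed for SELENOM, a selenoprotein of the endoplasmic reticulum, which measured 44.6, 113, 119 and 74.1 CPM, and for TMEM145, which measured 20.6, 50.8, 37.8 and 37.9 CPM, since 2D lay above PF in both. The 2D level also lay above PF for ROMO1, MT2A, TPT1, SPARC and ATP5MC2 of this ranking, so both orders were common in it. SELENOM lost its call with the length and GC trend removed (log2 0.96).

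On the lower side of the same ranking PABPC1L, a poly-A binding protein best known from oocytes (chromosome 20, 44910062 to 44959035), measured 77.2, 11.8, 13.8 and 19.9 CPM in PF, PF+2%PEGDA, PF+3%PEGDA and 2D and was 6.56-fold lower (5.61 to 7.70). HSF4, the heat shock factor of the lens, was 7.57-fold lower (11.7 and 1.54 CPM), REC8, a cohesin subunit of meiosis, 6.07-fold (9.77 and 1.61 CPM), and SCX, the tendon factor scleraxis, 5.51-fold (12.8 and 2.32 CPM). TNFRSF25, death receptor 3, was 4.58-fold lower (23.9 and 5.21 CPM). A pair of autophagy genes, ATG16L2 and ATG9B, went from 7.43 to 1.29 and from 14.2 to 3.15 CPM. ALS2CL was 6.09-fold lower, RNF207 4.21-fold, MYO15B 4.55-fold and PLCH2, a phospholipase C, 4.35-fold. FER1L4, a transcribed pseudogene of the ferlin family with 0% of its 50-mers elsewhere, was in the first ranking and measured 150.0, 22.5, 14.9 and 4.93 CPM in the 4 libraries, 6.66-fold lower. For each gene of this paragraph whose 4 levels are given, the PF level lay above all 3 others.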

How the data were processed

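The authors deposited 1 table of expected counts, estimated reads per gene symbol that are not scaled between libraries, made with FastQC, STAR and Partek on hg38, per the submitters' processing notes. Versions, annotation and counting rule are not given in the sources used here. The kit named in the labels' protocols does not mark strand. Values were rounded. The 4 libraries held 15687894, 15333450, 13760301 and 15641804 counts (PF, PF+2%PEGDA, PF+3%PEGDA, 2D), so 1 count was worth 0.0599 to 0.0731 CPM.

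Scaling was by TMM factors over the 4 libraries (edgeR 4.0.16, run under R 4.3.3). Log2 ratios used a prior count of 0.5, with exact Clopper-Pearson 95% intervals, computed with scipy 1.17.1, pandas 2.3.3 and numpy 2.4.6 (Python 3.11.15). The floor for a library with 0 counts was 3 counts. The calls were checked on simulated data that held counting error only and planted changes well above 2-fold. That check cannot speak to variation between tissues or libraries, or to calls near 2-fold.

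Named genes were the 15 highest and 15 lowest called genes with at least 5 CPM, ranked by the interval bound nearest to 0, up to 5 called members of each list or its most abundant ones, and a fixed set that includes MKI67, VIM, VEGFA and CCN2. The genes compared, the lists and this rule were chosen with earlier results of these data known. All other genes named were chosen after their values were seen.

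Coordinates, lengths and shared 50-mers come from GENCODE release 29 on GRCh38, where 14043 of 14407 genes matched. Promoters come from RefSeq, where 11154 matched.

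Some results are not reported here.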

Additional observations from a re-analysis of the deposited data

How the results depend on the processing

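No paired analysis was possible because each group is 1 library, and for the same reason no replicate could be left out. Alternatives for the count of genes were DESeq2 1.42.0 size factors, total counts, the trimmed mean over the 2 libraries alone, upper quartiles, no filter, a filter at 5 CPM, a prior count of 2, unrounded values, removal of the trend with transcript length and GC, and a 3-fold rule. Leaving out genes with at least 50% shared 50-mers was added after seeing the data. The filter at 5 CPM left 190 higher and 401 lower genes, and the 3-fold rule 136 and 328, both because fewer genes could pass. Under every other setting the counts stayed within 1.5 times, from 323 to 559 higher and 558 to 982 lower. With total counts they were 348 and 898, and with the length and GC trend removed 323 and 792, of which 289 higher genes were shared with the 418.

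Removing that trend turned the median of replication-dependent histones from 0.13 to -0.18 and that of YAP and TAZ targets from -0.16 to 0.056, and moved collagens from -0.03 to 0.16 and basement membrane genes from -0.07 to 0.13. It moved oxidative phosphorylation from 0.42 to 0.28, unfolded protein and stress genes from 0.27 to 0.16, mechanosensitive and lamina genes from -0.36 to -0.20 and endothelial and blood cell markers from 0.03 to -0.10. It also moved metallothioneins from 1.36 to 0.98. The cause was not tested. The filter at 5 CPM moved nuclear long non-coding RNAs from -0.96 to -0.35 (-1.08 with no filter), endothelial and blood cell markers to 0.16 and NF-kB targets from -0.01 to 0.22, with fewer genes in each. Without a filter the NF-kB median was -0.12, and that of Wnt and Notch targets went from 0.09 to -0.14. The metallothionein median of 1.36 became 0.93 without a filter and 1.51 with the filter at 5 CPM. Of 212 named or listed genes, 17 lost their call under at least 1 setting and 0 reversed. Removing the trend ended 14 of these calls, total counts 4 and a prior count of 2 ended 2, some of them the same genes. Genes near the limit rest on few counts, such as ADAMTS10 with 17 and 9, and MEG3 or LAMA1 are bounded only loosely.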
